A study of Mus musculus with 6 samples.

Results

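The cytosolic ribosomal proteins were examined in RNA-seq libraries of the epithelial fraction washed from the mouse colon. Their genes were taken by name: the rows of the authors' comparison table whose symbol starts with Rpl or Rps followed by a number, with the usual suffix letters, together with Rpsa and Rplp0, Rplp1 and Rplp2. This gave 82 of the 15138 genes in that table, 47 of the large and 35 of the small subunit, on 19 chromosomes. Of the 82, 79 are annotated as protein coding, while Rps3a2, Rps3a3 and Rps4l carry pseudogene biotypes. The names leave out some genes that also encode ribosomal proteins, such as Fau, Rack1 and Rpl36al, which are treated apart. Rpl24 has a fitting name but no row in the authors' table, and it held 8 to 17 counts per library. Its annotated exons share 484 bases with Gm28037 on the same strand.

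One group was wild type and the other was homozygous for a knockout of Lingo3, written Lingo3-/-, with 3 libraries each from mice of 2 months kept under naive conditions. The Lingo3 protein spans the cell membrane and carries leucine-rich repeats. The strain, the extent of the Lingo3 deletion and whether each library came from a separate animal are not stated, so p-values measure only the spread between these libraries. EDTA alone is given as the wash in the cell type labels of 5 libraries, while that of wild type replicate 1 adds DTT. The protocol that all 6 share names both agents.

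A ribosome joins a small subunit, which reads the messenger RNA, to a large subunit, which forms the peptide bond and through whose tunnel the new chain leaves. Each subunit is built from ribosomal RNA and one copy of most of its proteins, so the proteins are needed in near equal numbers. In mammals most of their messenger RNAs start with a C followed by an unbroken run of pyrimidines, the 5′ terminal oligopyrimidine (TOP) motif, through which mTORC1 and the RNA-binding protein Larp1 control their translation. RNA-seq of total RNA measures the amount of these transcripts and not their translation. In the colon, ribosome production is known to be high in the dividing cells of the crypt base.

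Windows around 8 annotated starts are shown as examples of the pyrimidine run, in genes that differed between the genotypes and in genes that did not pass. RefSeq promoter sequences (GRCm38.p6, from 250 bases before to 50 bases after the annotated start) could be matched to 59 of the 82 genes. Shown 5′ to 3′ are windows of 30 bases, in which the annotated start is base 16. Capitals mark the longest run of pyrimidines counted from a C within 5 bases of that start, with at least 4 more after it. Other pyrimidines can precede that C, as in the windows of Rpl38 and Rpl35. The first 4 genes passed the test for higher levels in knockout, as described further on, and the last 4 did not.
Rps2: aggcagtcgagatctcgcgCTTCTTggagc
Rpl28: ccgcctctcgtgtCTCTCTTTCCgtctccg
Rps26: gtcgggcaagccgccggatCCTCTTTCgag
Rpl4: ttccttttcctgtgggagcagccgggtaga
Rps6: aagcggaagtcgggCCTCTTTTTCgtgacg
Rpl38: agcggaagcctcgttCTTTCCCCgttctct
Rps27: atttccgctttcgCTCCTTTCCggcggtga
Rpl35: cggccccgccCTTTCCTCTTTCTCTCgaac
The windows lie at chr17:24720048-24720077 (plus strand) for Rps2, chr7:4792950-4792979 (plus) for Rpl28, chr10:128626492-128626521 (minus) for Rps26 and chr9:64173372-64173401 (plus) for Rpl4. They lie at chr4:86857353-86857382 (minus) for Rps6, chr11:114668565-114668594 (plus) for Rpl38, chr3:90213634-90213663 (minus) for Rps27 and chr2:39005117-39005146 (minus) for Rpl35. Of these windows 7 hold such a run and that of Rpl4 does not, although a run of pyrimidines lies further upstream in it.

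Such a run within 5 bases of the first listed start was found in 28 of the 59 matched genes (47.5%), against 19% of 16338 protein-coding genes with a RefSeq promoter. A C exactly at the annotated start with at least 4 more pyrimidines after it was found in 12 of the 59 (20.3%), against 2.22%. This count did not ask that the run open at that C, and in most of these genes pyrimidines also lay before it. The run was present in 16 of 35 large subunit genes (45.7%) and in 12 of 24 small subunit genes (50%). Counting any listed start, 4 of 10 matched genes with higher levels in knockout and 25 of 49 others held one. No promoter was matched for 7 of the 17 genes with higher levels, and the difference between these counts was not tested. Over the whole promoter and on both strands, the ETS motif CCGGAAG was found in 40.7% of the ribosomal protein genes against 12.4% of all, the YY1 core GCCATNTT in 18.6% against 6.82%, the Sp1 motif GGGCGG in 62.7% against 48.3%, and TATAAA in 10.2% against 12.6%. These matches are descriptions of the letters and not binding sites.

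Gene counts totalled 25010618 to 28029583 in the wild type and 11868000 to 17200931 in the knockout libraries. Mitochondrial transcripts took 46.8% ± 1.60 of them in wild type and 35.5% ± 0.823 in knockout (SD, n = 3). Lingo3 had 0 to 3 counts in every library, so the genotype labels could not be checked by it. With edgeR's quasi-likelihood test over 16856 genes and a Benjamini-Hochberg adjusted p under 0.05, 1589 genes were higher in knockout and 1007 were lower. This split depends on the scaling: it was 5415 higher and 420 lower with library totals alone, where the median of all genes shifted by 0.28 (log2), and 1137 higher and 1365 lower with upper-quartile factors. In bulk RNA, fewer cells of a type and less RNA per cell cannot be told apart.

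Ribosomal protein transcripts were among the abundant ones of this epithelium. Levels per length, in CPM (counts relative to the library total after scaling by TMM factors) divided by the kilobases of 1 chosen transcript per gene, had a median of 255 for 47 large subunit genes and 369 for 32 coding small subunit genes. The median over all 13714 nuclear protein-coding genes tested was 5.20. The highest levels per length in the large subunit were those of Rpl41 at 670, which encodes the shortest of these proteins, Rpl9 at 647, Rpl32 at 633 and Rplp1 at 598. In the small subunit they were those of Rps12 at 970, Rps27 at 859, Rps18 at 545 and Rps14 at 531. The lowest of the large subunit were Rpl7l1 at 28.3, a paralog of Rpl7 known for a role in ribosome assembly, and Rpl35 at 35.8, a protein at the exit of the tunnel. Rps20 at 64.3 and Rps16 at 84.9 were the lowest coding genes of the small subunit.

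Ribosomal protein genes have many processed copies, and reads without a unique alignment were left out of the deposited counts: they made 36.7% ± 0.184 of the reads in wild type and 32.6% ± 0.309 in knockout (SD, n = 3). Of the 50-base words of the chosen transcripts, a median of 60.6% also occurred in another annotated gene, from 0% to 98.6% for Rps27, and 53 members were above 50%. Words were sought on both strands, and genes overlapping a member at its own locus were counted too, so sharing is not only with processed copies. Rpl35 shared 95.1% of its words and Rps12, with the highest level, shared 90.1%. For Rpl35, exon overlaps with Wdr38 and Arpc5l on the opposite strand summed to 708 bases, in a chosen transcript of 946 bases. The chosen transcript of Rps20 was 3706 bases long, which lowers its value per length. Those of Rps16 and Rpl35 were 1109 and 946 bases long, for coding lengths of 438 and 369 bases, so their low values also depend on the transcript chosen. The read length is not given in the sources used here, and the effect of the copies on each level was not tested. Annotated exons overlapped another gene on the same strand in 3 members, Rpl13a, Rps10 and Rpl19, and on the opposite strand in 9.

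In knockout, 17 of the 82 ribosomal protein genes rose and none fell. The genes that rose were mostly of the large subunit: 13 of 47 (27.7%) against 4 of 35 (11.4%) in the small subunit. Over all genes tested, 9.43% were higher and 5.97% lower. Among nuclear protein-coding genes with a mean of at least 25 CPM, which are nearer to these genes in abundance, 17.3% were higher and 5.15% lower. The share in the large subunit was above this figure and that in the small subunit was below it. The difference between the subunits' shares was not tested, since the members share libraries and are not replicates. The median log2 fold change, knockout over wild type, was 0.14 in the large subunit, 0.06 in the small subunit and -0.03 over all genes tested. The small subunit median was -0.02 with upper-quartile factors and -0.01 when only nuclear protein-coding genes were counted. The medians over all genes tested in these settings were -0.09 and -0.02.

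Without adjustment, a p under 0.05 was reached by 30 members in the higher and 2 in the lower direction. The share of all genes at that unadjusted threshold is not given here. DESeq2 called 19 members higher and 1 lower, and limma-voom called 17 higher and none lower. Over all genes DESeq2 called 8.41% higher and 6.43% lower, and limma-voom 8.92% and 5.51%. The authors' deposited table lists 19 of the 82 as higher and none as lower at the same threshold, against 10% of its genes listed as higher and 6.72% as lower. Those 19 are the 17 genes above with Rpl10a and Rps15. In 31 members (37.8%) every knockout library lay above every wild type library, against 19.7% of all genes tested and 30.2% of the abundant nuclear coding genes. These were 22 large subunit genes (46.8%) and 9 small subunit genes (25.7%). In 8 members every knockout library lay below, against 16% of all genes.

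**Figure D1:**
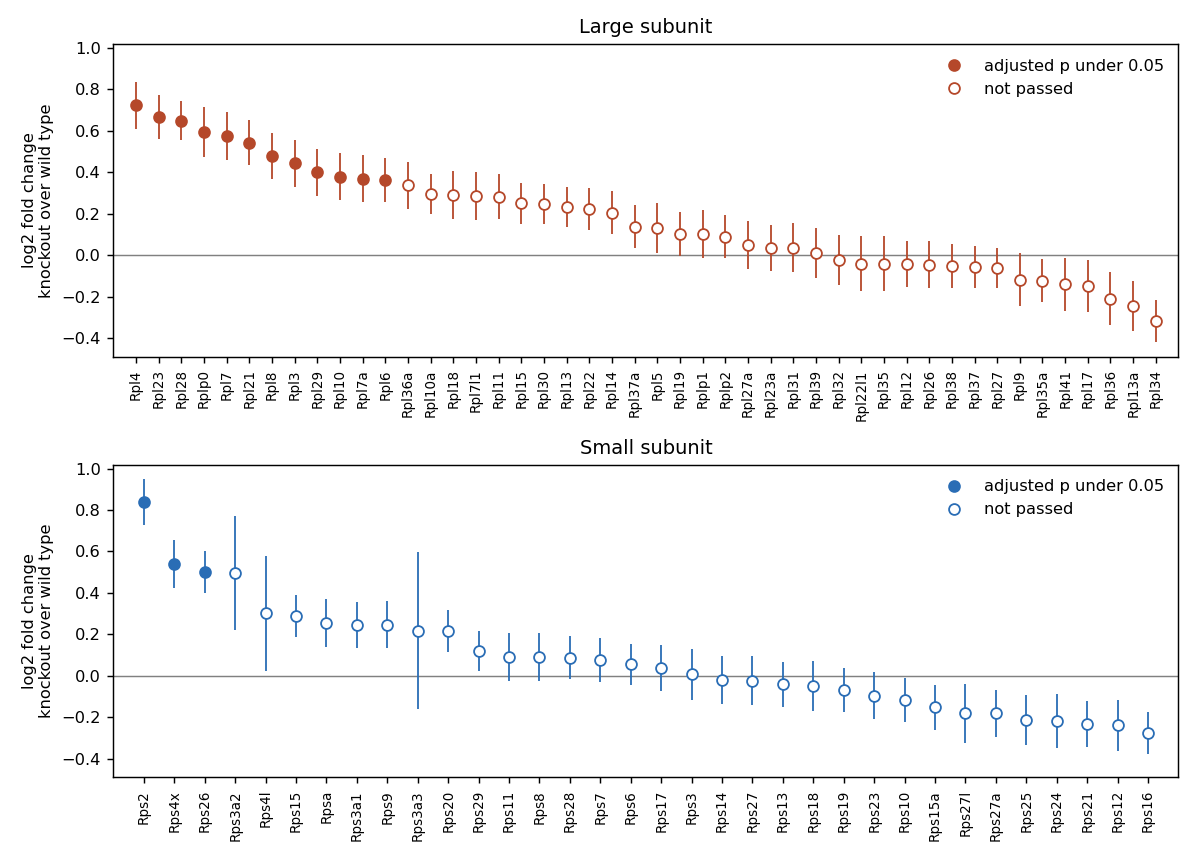
Log2 fold change, knockout over wild type, of 46 large (upper panel) and 34 small subunit genes (lower panel), with bars of 1 SE and filled points for an adjusted p under 0.05. Filled points are 12 in the upper and 3 in the lower panel, and all of them lie above 0.

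Among large subunit genes, the largest rise was that of Rpl4, whose protein lines the exit tunnel. Its level was 324, 313 and 300 CPM in wild type and 475, 523 and 549 CPM in knockout replicates 1 to 3, a log2 fold change of 0.72 (SE 0.12, adjusted p = 0.00298, edgeR). Rpl23, which lies on the face that meets the small subunit and is also known to bind Mdm2, was at 141, 136 and 130 CPM in wild type and 193, 228 and 226 CPM in knockout, a log2 fold change of 0.67 (SE 0.11, adjusted p = 0.00298, edgeR). In both genes all knockout libraries stood above all wild type libraries, and knockout replicate 1 was the lowest of the 3. Rpl28 had 90.1, 91.1 and 89.6 CPM in wild type and 131, 144 and 150 CPM in knockout (log2 fold change 0.65, SE 0.09, adjusted p = 0.00202, edgeR). The wild type libraries of Rpl28 lay close together, and all knockout libraries were above them.

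Rplp0, the base of the stalk that recruits the elongation factors, was the most abundant member by counts. It had 570, 550 and 547 CPM in wild type and 794, 809 and 913 CPM in knockout, a log2 fold change of 0.59 (SE 0.12, adjusted p = 0.00867, edgeR). Its partners on the stalk, which sit on it as dimers, did not pass: Rplp1 was at 286, 284 and 293 against 284, 293 and 349 CPM (log2 fold change 0.10, adjusted p = 0.588, edgeR) and Rplp2 at 129, 135 and 134 against 138, 130 and 156 CPM (0.09, adjusted p = 0.582, edgeR). The groups overlapped for both partners and did not overlap for Rplp0. Rpl7 was at 365, 348 and 345 CPM in wild type and 482, 541 and 554 CPM in knockout (0.58, SE 0.12, adjusted p = 0.00787, edgeR), and Rpl21 at 190, 184 and 184 CPM against 246, 279 and 289 CPM (0.54, SE 0.11, adjusted p = 0.00733, edgeR). Knockout replicate 1 was again the lowest of its group in both, and still above each wild type library.

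The other 6 large subunit genes that rose had log2 fold changes of 0.36 to 0.48. They were Rpl8 and Rpl3, proteins near the peptidyl transferase centre, Rpl10, which joins the large subunit late in its maturation next to that centre, and Rpl29, Rpl7a and Rpl6. Rpl10 had 292, 279 and 267 CPM in wild type and 334, 363 and 392 CPM in knockout (log2 fold change 0.38, SE 0.11, adjusted p = 0.0417, edgeR). Each of these 6 calls was lost when at least 1 library was left out. Rpl8 was lost without knockout replicate 3 (adjusted p = 0.0611) and Rpl3 without wild type replicate 3, knockout replicate 2 or knockout replicate 3 (highest adjusted p = 0.0858). Rpl29 (0.13), Rpl10 (0.133), Rpl7a (0.15) and Rpl6 (0.128) were lost in 4 or 5 of the 6 omissions, with the highest adjusted p of edgeR in brackets.

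In the small subunit, Rps2 rose the most, and its change was the largest of all members. Its protein lies where the messenger RNA enters the ribosome. Its level was 168, 176 and 167 CPM in wild type and 274, 309 and 331 CPM in knockout, a log2 fold change of 0.84 (SE 0.11, adjusted p = 0.00147, edgeR). The lowest knockout library was thus well above the highest wild type library. Rps4x, encoded on the X chromosome, was at 299, 299 and 283 CPM against 388, 438 and 454 CPM (0.54, SE 0.11, adjusted p = 0.0098, edgeR). Rps26, at the channel where the messenger RNA leaves, was at 104, 94.2 and 90.2 CPM against 126, 134 and 148 CPM (0.50, SE 0.10, adjusted p = 0.00863, edgeR). Neither gene showed overlap between the groups. The calls of these 3 genes, like those of Rpl4, Rpl23, Rpl28, Rplp0, Rpl7 and Rpl21, were kept without any single library. Of the 17 calls, 10 were kept in this way.

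**Figure D2:**
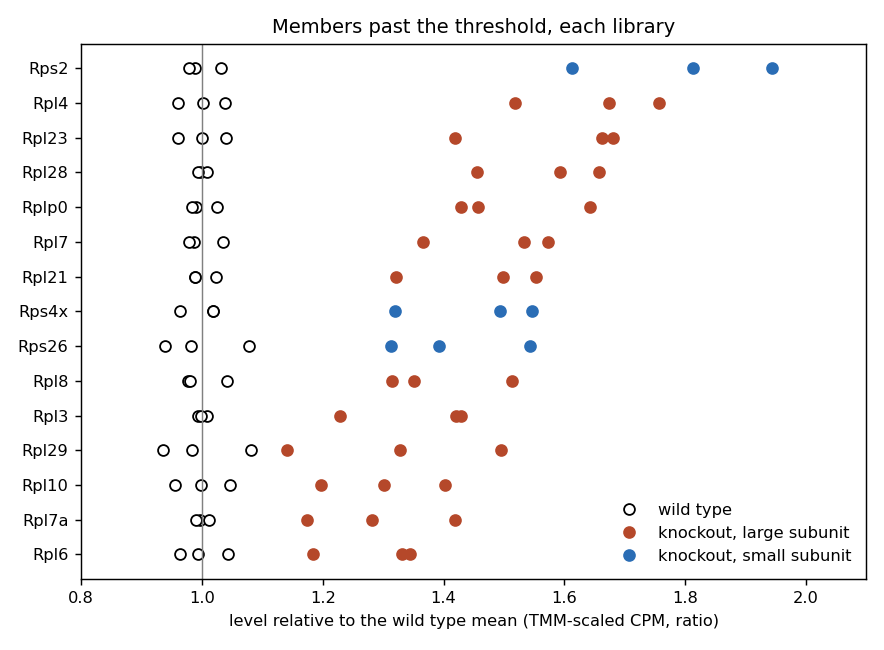
Level of 15 of the 17 genes that rose, as TMM-scaled CPM divided by the mean of the wild type libraries, with open points for the 3 wild type libraries and filled points for the 3 knockout libraries coloured by subunit. All filled points lie to the right of the open points of their gene, and Rps2 lies farthest to the right.

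Several proteins with known functions outside the ribosome or in disease did not pass the test. Rpl5 and Rpl11 form a particle with a ribosomal RNA that binds Mdm2 when ribosome assembly is disturbed. Rpl11 was at 138, 147 and 153 CPM in wild type and 156, 191 and 185 CPM in knockout (log2 fold change 0.28, adjusted p = 0.101, edgeR), without overlap, while Rpl5 was at 243, 243 and 263 against 234, 299 and 286 CPM (0.13, adjusted p = 0.483, edgeR), with overlap. Rpsa, also known as the laminin receptor, was at 439, 437 and 461 against 495, 542 and 559 CPM (0.26, adjusted p = 0.153, edgeR), without overlap. Rps6, the substrate of the S6 kinases, was at 150, 148 and 154 against 145, 158 and 166 CPM (0.06, adjusted p = 0.737, edgeR). Rps19, a gene mutated in Diamond-Blackfan anaemia in humans, was at 236, 249 and 244 against 212, 244 and 240 CPM (-0.07, adjusted p = 0.706, edgeR). The groups overlapped for Rps6 and Rps19.

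The lowest log2 fold changes were those of Rpl34 and Rps16, followed by Rpl13a. Rpl34 had 178, 188 and 202 CPM in wild type and 143, 154 and 159 CPM in knockout (log2 fold change -0.32, SE 0.10, adjusted p = 0.0529, edgeR), and Rps16 had 94.5, 105 and 110 against 82.1, 81.0 and 92.5 CPM (-0.28, SE 0.10, adjusted p = 0.0834, edgeR). Rpl13a, which exceeds 600 bases of coding length, had 366, 404 and 439 against 311, 346 and 361 CPM (-0.25, SE 0.12, adjusted p = 0.185, edgeR). Rpl34 and Rpl13a were singled out after their values were seen. In all 3 genes every knockout library was below every wild type library, yet none passed. Rpl34 did pass with DESeq2 (adjusted p = 0.0279), and Rpl34 (0.0195) and Rps16 (0.0307) did with upper-quartile factors. Rps27a, which encodes a fusion of ubiquitin and a small subunit protein, was at 246, 256 and 261 against 197, 242 and 234 CPM (-0.18, adjusted p = 0.294, edgeR). Rps12 was at 487, 517 and 553 against 389, 457 and 472 CPM (-0.24, adjusted p = 0.21, edgeR), and Rpl41 at 283, 315 and 324 against 240, 276 and 320 CPM (-0.14, adjusted p = 0.48, edgeR). Rpl41 overlapped between the groups and the other 2 did not. The remaining highly expressed genes Rpl9, Rpl32, Rps27, Rps18 and Rps14 had log2 fold changes of -0.12 to -0.02 with adjusted p of 0.564 to 0.927.

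Paralogs did not move with their parent genes in a fixed way. Rpl7 rose by 0.58 (log2), while Rpl7l1 was at 38.3, 32.2 and 29.7 against 37.2, 44.3 and 40.4 CPM (0.29, adjusted p = 0.11, edgeR). Rpl22 and Rpl22l1 had log2 fold changes of 0.22 and -0.04 (adjusted p = 0.159 and 0.858, edgeR), and Rps27 and Rps27l of -0.02 and -0.18 (0.918 and 0.416). Rps4l, a transcribed pseudogene related to Rps4x, was at 3.60 to 8.64 CPM with overlapping groups. The tissue-restricted forms Rpl3l, Rpl39l and Rpl10l are not in the authors' table and summed to 11, 2 and 0 counts over the 6 libraries, beside 301 to 433 CPM for Rpl3 and 117 to 155 CPM for Rpl39. Differences between a paralog's and its parent's change were not tested.

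Since every scaling factor cancels in it, the ratio of summed large to summed small subunit counts compares the subunits within a library. It was 1.16, 1.15 and 1.14 in wild type and 1.28, 1.27 and 1.27 in knockout, with means of 1.15 ± 0.0124 and 1.27 ± 0.00571 (SD, n = 3). The gap between the groups was several times their spread. Without Rplp0 the means were 1.08 ± 0.00899 and 1.17 ± 0.00145. Summed levels were 9063 ± 197 CPM in wild type and 10524 ± 876 CPM in knockout for the large subunit, with all knockout libraries above wild type. For the small subunit they were 7884 ± 258 and 8267 ± 713 CPM, with knockout replicate 1 below all wild type libraries. All members together made 16947 ± 455 and 18791 ± 1588 CPM, with knockout replicate 1 within the range of wild type. As a share of nuclear protein-coding counts they were 3.32% ± 0.182 and 3.52% ± 0.241 (SD, n = 3), and these ranges overlapped too. Knockout replicate 1 was the lowest knockout library in 76 of the 82 members. No p is given for these sums, which are scores over chosen members.

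**Figure D3:**
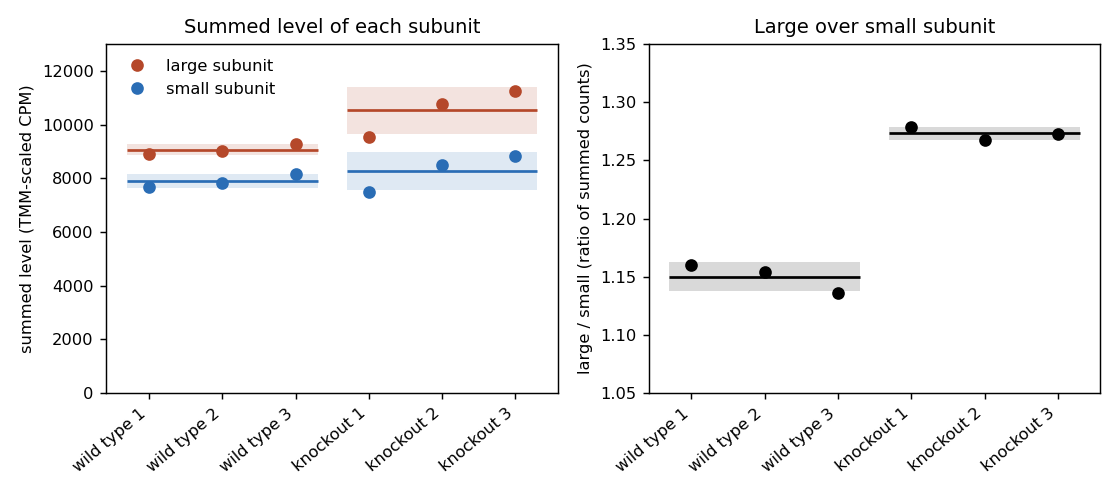
Left, summed level of the large and small subunit genes in each library in TMM-scaled CPM; right, ratio of summed large to summed small subunit counts on an axis that does not start at 0. Lines are group means and bands 1 SD (n = 3); the ratio is 1.14 to 1.16 in wild type and 1.27 to 1.28 in knockout.

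The change went with the length of the protein as well as with the subunit. Across the 79 coding members, the log2 fold change and the coding length had a Pearson r of 0.55 and a Spearman rho of 0.50. The values were 0.55 and 0.54 in the 47 large and 0.53 and 0.43 in the 32 small subunit genes. Genes are not independent replicates and share the 6 libraries, so these are descriptions. Over 6281 other nuclear protein-coding genes with a coding length under 1300 bases, r was 0.01. The length of the chosen transcript had a Pearson r of 0.28 and a Spearman rho of 0.40 with the change. In the large subunit these values were 0.47 and 0.52. The mean level per length had an r of -0.25. Guanine and cytosine content (r = 0.14) and the share of 50-base words found elsewhere (r = -0.10) went less with the change. The 17 genes that rose had a median coding length of 771 bases, against 435 bases in those that did not pass.

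In classes of coding length chosen after the data were seen, 3 of 38 members under 450 bases rose, with a median log2 fold change of -0.03. From 450 to under 600 bases 3 of 18 rose (median 0.06), from 600 to under 800 bases 5 of 15 (0.25), and from 800 bases 6 of 8 (0.51). The last 2 classes hold under 20 genes each. In other nuclear protein-coding genes of at least 25 CPM the shares higher were 16.7%, 21.5%, 20.9% and 16.8% in the same classes. Members of 600 bases or more summed to 6204 ± 44.3 CPM in wild type and 7875 ± 598 CPM in knockout, and shorter ones to 10736 ± 422 and 10906 ± 990 CPM (SD, n = 3). The ratio of long to short members was 0.598, 0.578 and 0.559 in wild type and 0.736, 0.717 and 0.715 in knockout, again without overlap.

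The summed counts of the subunits were also compared on each side of 600 bases. The ratio of large to small subunit counts was 0.962 ± 0.00618 in wild type and 1.04 ± 0.00526 in knockout under 600 bases, and 1.58 ± 0.0336 and 1.71 ± 0.0195 from 600 bases (SD, n = 3), with no overlap on either side. In the finer class from 600 to under 800 bases 3 of 9 large and 2 of 6 small subunit genes rose, which is the same share, with medians of 0.29 and 0.17. Between 450 and under 600 bases 3 of 10 large and 0 of 8 small subunit genes rose, with medians of 0.19 and -0.03. Under 450 bases 2 of 22 and 1 of 16 rose, with medians of -0.01 and -0.08. From 800 bases the median was 0.51 over 6 large and 0.55 over 2 small subunit genes. When transcript length and base composition were fitted over all genes in each library and taken out as offsets, an alternative added after the data were seen, 20 members were higher, 16 of the 17 among them, and r with coding length was 0.38. Wild type replicate 1 is the library whose label adds DTT. Its deviation from the wild type mean had an r of 0.41 with coding length, against -0.18 and -0.29 for the other 2 wild type libraries. The corresponding r of the knockout libraries against that mean was 0.51 to 0.56. The 6 values share the wild type mean, and the wild type deviations of each gene cancel out over that group. The wild type values of r therefore cannot all have the same sign, and they do not single out a library. RNA quality values were not used here, and their part in the relation with length was not tested.

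**Figure D4:**
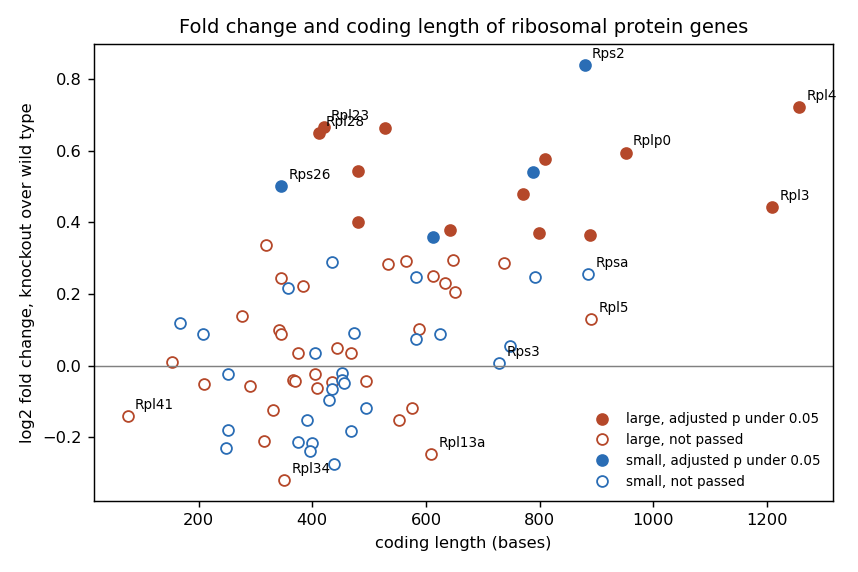
Log2 fold change, knockout over wild type, against coding length in bases for the 79 protein-coding members, coloured by subunit and filled where the adjusted p is under 0.05. Of the 8 members of 800 bases or more 6 are filled and all lie above 0, while members under 450 bases spread around 0.

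Other genes tied to ribosomal proteins were described by lists chosen with earlier results of these data known. Of the 4 ribosomal proteins with another name Rpl36al, a close paralog of Rpl36a, rose (log2 fold change 0.33, adjusted p = 0.0405, edgeR). This call was lost when single libraries were left out (highest adjusted p = 0.149) and with upper-quartile factors, which called none of the 4. Rpl36a itself had 0.34 (adjusted p = 0.0641, edgeR). Among 22 TOP messenger RNAs that encode no ribosomal protein, 12 rose (54.5%, against 9.43% of all genes and 17.3% of the abundant coding ones) and none fell, with a median of 0.33 beside -0.03 over all genes. The count was 7 when wild type replicate 3, knockout replicate 2 or knockout replicate 3 was omitted, 8 with upper-quartile factors and 20 with library totals only. Their largest changes were those of the elongation factor subunits Eef1g (0.80, adjusted p = 0.0014) and Eef1a1 (0.70, adjusted p = 0.00875, both edgeR). Of 5 noncoding hosts of small nucleolar RNAs that also start with a TOP motif, none passed with edgeR, DESeq2 or limma-voom. With 9.43% of all genes higher and 5.97% lower, a list of 5 without a call cannot be told from the share over all genes. Mean wild type levels were 45.7 CPM for Gas5 and 4.94 to 8.57 CPM for the others. With edgeR 1 host had an unadjusted p under 0.05, in the lower direction, and the median of the hosts was -0.22. With library totals only this median was 0.06, below the 0.26 of all genes in that scaling.

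Of 30 regulators of mTORC1 and of TOP messenger RNAs, Larp4, an RNA-binding protein (0.71, adjusted p = 0.00191), and Rragc, a Rag GTPase (0.36, adjusted p = 0.0313, edgeR), rose and none fell. At an unadjusted p under 0.05, 7 were higher and 2 lower, and the share of all genes at that threshold is not given here. The 2 calls are 6.67% of the list, below the 9.43% of all genes, and the count was 1 with DESeq2 and 15 with library totals only. Of 17 chaperones and import factors of ribosomal proteins, 7 rose (41.2%, against 9.43% of all genes and 17.3% of the abundant coding ones). None fell, and the median was 0.32. The count of higher genes was 4 without wild type replicate 3, 3 without knockout replicate 2 or 3, and 15 with library totals only. Ipo5, an importin, had 0.92 (adjusted p = 0.000785) and Grwd1, the chaperone of Rpl3, had 0.79 (adjusted p = 0.00712, edgeR). Nap1l1, which rose, and Naca and Btf3, which did not pass, belong to this list and to that of the TOP messenger RNAs. Of 14 quality control genes, Pelo (0.49, adjusted p = 0.0401) and Hbs1l (0.30, adjusted p = 0.0441, edgeR), which rescue stalled ribosomes together, rose and none fell. These 2 are 14.3% of the list, between the 9.43% of all genes and the 17.3% of the abundant coding ones. The list gave no call in either direction with DESeq2, and none higher and 1 lower with upper-quartile factors. The calls of Rragc, Pelo and Hbs1l were lost when single libraries were left out (highest adjusted p of 0.0948, 0.102 and 0.141).

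Several lists of markers of cell state and of other cell types also differed between the groups. Of 14 proliferation markers 9 rose and none fell, with summed levels of 430 to 469 CPM in wild type and 560 to 706 CPM in knockout, Ccna2 (1.04) and Mcm6 (0.80) having the largest log2 fold changes. Of 10 crypt stem and progenitor markers 6 rose and none fell, from 297 to 321 CPM to 531 to 627 CPM, led by Ascl2 (1.78) and Slc12a2 (1.13). The shares higher were 64.3% and 60%, against 9.43% of all genes and 17.3% of the abundant coding ones. The wild type and knockout ranges of both lists were apart. The count of proliferation markers was 4, 5 and 6 when wild type replicate 3, knockout replicate 2 or knockout replicate 3 was omitted, and 14 with library totals only. That of the stem and progenitor markers was 4 to 6 over all omissions, and 8 with library totals only. Of 13 epithelial markers Cdx1 (0.63) and Krt18 (0.49) rose, with summed ranges of 14305 to 14876 and 14823 to 16747 CPM. Those 2 are 15.4% of the list, above the 9.43% of all genes and below the 17.3% of the abundant coding ones. The epithelial count was 4 without wild type replicate 1, 1 without knockout replicate 3, where Krt18 was lost, and 9 with library totals only.

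Of 16 T cell markers 14 fell and none rose, from 360 to 420 CPM to 128 to 224 CPM, with Cd8b1 (-2.40) and Cd4 (-2.08) changing the most. Of 11 B and plasma cell markers 6 fell, from 55.8 to 122 CPM to at most 37.0 CPM, led by Pax5 (-2.16) and Mzb1 (-2.07). The B and plasma cell count was 1 without knockout replicate 2 or 3, 3 without wild type replicate 2 and 9 without wild type replicate 1, and the call of Mzb1 was lost in such omissions (highest adjusted p = 0.08, edgeR). Of 9 macrophage and dendritic cell markers tested Cd14 rose (1.00) and Itgax fell (-0.72), with sums of 83.9 to 102 and 63.5 to 229 CPM. Of 12 stromal markers tested 3 fell, Kdr (-1.39) and Des (-1.32) among them, with sums of 353 to 1010 and 238 to 480 CPM. The stromal count was 2 to 5 over the omissions, with the highest without wild type replicate 3. The calls of Itgax and Des were lost when single libraries were left out (highest adjusted p of 0.129 and 0.156, edgeR). The shares lower were 87.5% of T cell, 54.5% of B and plasma cell and 25% of stromal markers tested. Of the macrophage and dendritic cell markers, 11.1% were higher and 11.1% lower. Over all genes 9.43% were higher and 5.97% lower, and of the abundant coding ones 17.3% and 5.15%. No measured marker was at 0 counts in all libraries. The part of these cell types and states in the ribosomal protein values was not tested.

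**Figure D5:**
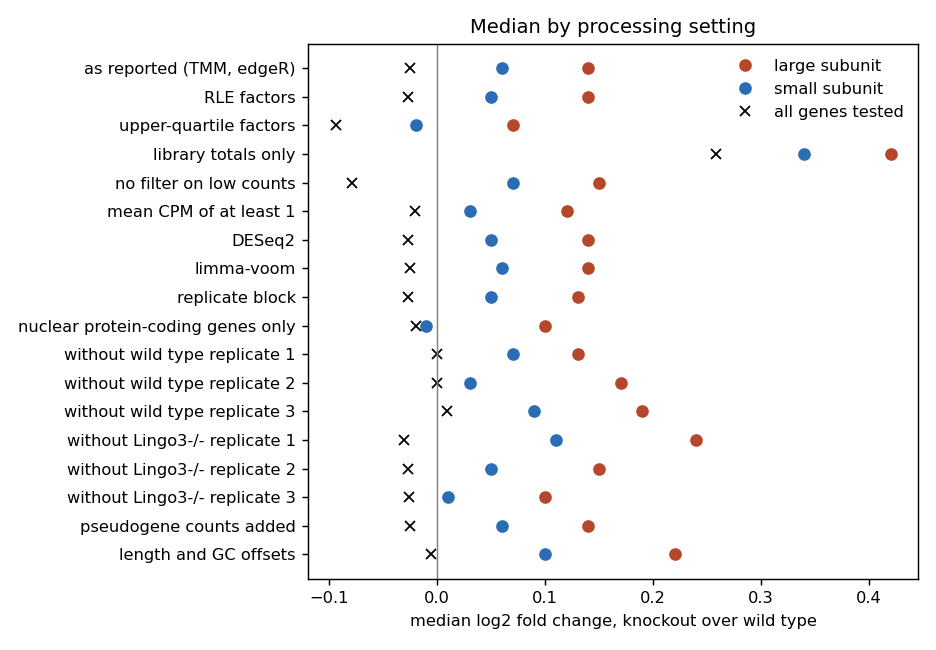
Median log2 fold change of the large subunit genes, the small subunit genes and all genes tested, under each processing setting. The large subunit median lies above the small subunit median in every setting shown, at 0.14 against 0.06 as reported, and all 3 medians move together with library totals only.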

How the data were processed

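The deposited table holds raw read counts per gene, which the authors made with HTSeq; Trimmomatic 0.39, STAR, HTSeq and DESeq2 and the build GRCm38 are named in the submitters' processing notes, and libraries were stranded total RNA after rRNA depletion, per the labels. Not given in the sources used here are the other tools' versions, the strand setting and the annotation release. The authors' comparison table holds DESeq2 log2 fold changes, p-values, normalized counts (a signal) per library and a test statistic (a score, not used), as deposited and per the file headers. It was used to choose members and descriptively.

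Counts were tested in R 4.3.3 with edgeR 4.0.16 (filterByExpr, minimum count 10 and total 15; TMM; robust quasi-likelihood test, 2-sided; genotype as the only term; Benjamini-Hochberg over 16856 genes), a procedure also run on simulated counts. DESeq2 1.42.0, limma 3.58.1 voom and other scalings, filters and omissions were alternatives. All 82 members passed the filter. Rows of the HTSeq summary held 53.6 to 60.1% of reads per library and were left out. No 2 libraries agreed within sampling noise (chi-square per degree of freedom at least 8.47). Counts carry no molecular identifiers. Lengths, coordinates and overlaps came from GENCODE M21 and promoters from RefSeq.

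The members and lists were chosen with earlier results of these data known. Named were the 8 called members with the largest changes, the 4 highest and 2 lowest per subunit by level per length, members with fixed roles, paralogs, and the 2 largest called changes of each list. A few genes that these rules name are not reported here by name; they remain in the counts, sums and medians.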

Additional observations from a re-analysis of the deposited data

How the results depend on the processing

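The large subunit's higher median and share of calls held under each scaling, filter and tool tried. With library totals only, 5835 genes were called, 47 members were higher (30 large and 17 small), the medians were 0.42 and 0.34 and the summed level was 1.346 times wild type (main 1.109). Upper-quartile factors gave 12 higher, all among the 17, and 2 lower (1 of each subunit), as did nuclear protein-coding genes only for the lower count of 2. A mean CPM of at least 1 and DESeq2 each gave 1 lower, of the large subunit, and the length and GC offsets, added after seeing the data, gave 1 lower, of the small subunit (Rps16, adjusted p = 0.0402, edgeR). The knockout over wild type quotient of the large to small ratio was 1.107, and 1.085 without Rplp0. The cause of these shifts was not tested.

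Leaving out 1 library gave 1124 to 2686 genes called and 10 to 20 members higher, with the lower counts of 11, 11 and 10 when wild type replicate 3, knockout replicate 2 or knockout replicate 3 was omitted. Large subunit genes higher numbered 7 to 16 and small subunit genes 3 to 4, and none was lower. The medians were 0.10 to 0.24 and 0.01 to 0.11, the highest without knockout replicate 1. The summed level was 1.07 to 1.161 times wild type and the quotient 1.101 to 1.112. 

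Replicate numbers did not pair the libraries (r of same-numbered deviations -0.01, -0.12 and -0.10); a replicate block gave 2061 genes called and 13 of the 17 members remained higher. Depth was lowest in knockout replicate 3.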
